A study of Homo sapiens with 8 samples.

Results

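The actin cytoskeleton and SRF-regulated genes comprised 35 named genes of the 61906 listed in the RNAseq table, taken by symbol and covering actins, actin-binding proteins, nonmuscle myosin II and the transcription factor SRF with its coactivators. U251, a human glioblastoma cell line of wild type genotype, was exposed for 24 h to vehicle (DMSO, 4 cultures) or to 100 nM LLY-283 (4 cultures), a small-molecule inhibitor of the arginine methyltransferase PRMT5. Poly(A) RNA was sequenced, and the values are TPM, a measure of transcript abundance in which reads are divided by transcript length and scaled to the total of the library. The data thus describe 1 cell line, 1 dose and 1 time, and in bulk RNA a higher level in every cell cannot be told apart from a larger share of cells with a high level.

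Actin filaments are polymers of globular actin that give the cell its shape and, together with nonmuscle myosin II, generate contractile force. Free globular actin binds the coactivators MRTFA and MRTFB and holds them out of the nucleus. When actin polymerizes they are released, enter the nucleus and join SRF, which binds a short DNA element called the CArG box and drives genes of the actin cytoskeleton, including those of actin itself.

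Of the 35 genes, 32 reached 1 TPM on average and were tested with limma on log2(TPM + 0.1). At an adjusted p under 0.05, 16 of the 32 rose after LLY-283 and 0 fell. At an unadjusted p under 0.05 limma had 18 higher and 2 lower, the latter being TAGLN and MYH10. Of all 14478 genes tested, 8.61% were called higher and 17.6% lower. The median log2 fold change was 0.09 over the 32 genes and -0.05 over all genes tested. After quantile normalization these medians were 0.08 and 0.01, and after median-of-ratios scaling 0.15 and 0.01. With the trend on GC content and length removed, which also brings each library to the same mean log2 level, they were 0.19 and 0.03. None of the 32 genes moved by more than 1.5-fold with an adjusted p under 0.05, which 3.87% of all genes did. The groups of 4 libraries did not overlap for 17 genes, of which 16 were higher with LLY-283 and 1, MYH10, was lower, compared with 9.63% and 19.6% of all genes tested.

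Most of these genes were abundant. The tested genes that averaged at least 100 TPM, a limit chosen after the values were seen, numbered 25 of the 32. Of the 1642 genes of that abundance in the whole table, 18.5% were called higher and 11.7% lower, with a median of 0.02 on the log2 scale. Of the 25, 14 rose and the median was 0.10. Of the 7 tested genes below that level, SRF and MRTFA rose.

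**Figure D1:**
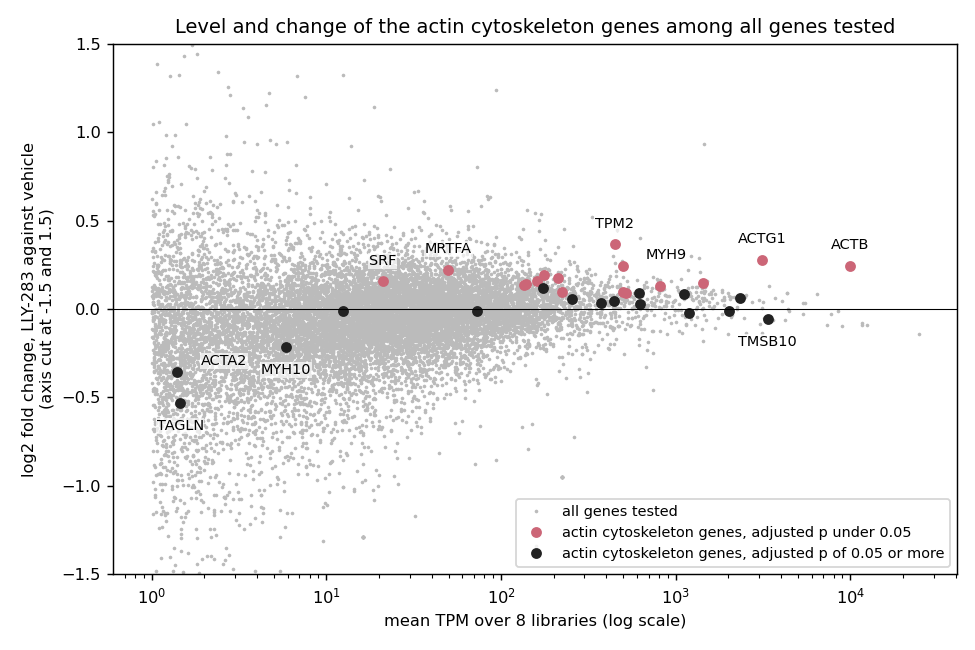
Mean TPM over the 8 libraries (log axis) against the log2 fold change of LLY-283 against vehicle for the 14478 genes tested by limma (gray), with the 32 tested actin cytoskeleton genes in red (adjusted p under 0.05) or black. The red points lie between 0.09 and 0.37, and most lie at the abundant end of the plot.

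Among markers of the glioblastoma line, VIM at 4301 TPM, CD44 at 1576 TPM, GFAP at 809.5 TPM, NES at 483 TPM and SOX2 at 103 TPM were abundant in vehicle, and S100B was low at 4.3 TPM. Of the 8 markers, 3 fell and 1 rose in limma, GFAP (log2 fold change -0.25), SOX2 (-0.27) and NES (-0.17) among the former and CD44 (0.11) as the latter. VIM, FN1, TNC and S100B did not pass, and the call of CD44 was lost in 6 of the 17 alternatives. It was lost at 0.10 to 0.11 without vehicle replicate 1, 2 or 4, LLY-283 replicate 1 or a filter on low values. With quantile normalization CD44 was at 0.08. Defining markers of smooth muscle were at or near 0, with a mean over all libraries of 0 TPM for MYOCD, 0.015 TPM for MYH11, 0.044 TPM for LMOD1 and 0.19 TPM for DES. The same held for the striated muscle genes MYH7, TNNT2 and MYOD1 at 0 TPM, for the leukocyte genes PTPRC (0.006 TPM) and CD3E (0 TPM), and for the epithelial genes EPCAM (0.055 TPM), CDH1 (0.104 TPM) and KRT5. KRT5 was at 0 to 0.02 TPM in vehicle and at 0.08 to 0.33 TPM with LLY-283, without overlap but under the filter. CD68, the remaining leukocyte marker, was at 0.95 to 2.93 TPM in vehicle and 1.06 to 1.62 TPM with LLY-283 and did not pass. Summed over the list, the 6 smooth muscle markers were at 33.9 to 36.7 TPM in vehicle and 37.3 to 44.9 TPM with LLY-283, nearly all of it SMTN, which other cells also express. ACTG2, the other smooth muscle marker above the filter, was at 0.98 to 1.32 TPM in vehicle and 1.21 to 2.42 TPM with LLY-283. Its groups overlapped, and its log2 fold change of 0.48 did not pass (limma adjusted p = 0.147). The 5 striated muscle markers summed to 0.20 to 0.45 TPM and 0.25 to 0.64 TPM, the 3 epithelial markers to 0.15 to 0.18 TPM and 0.20 to 0.67 TPM, and the 3 leukocyte markers to 0.99 to 2.93 TPM and 1.06 to 1.62 TPM. PRMT5 itself was at 100.0 TPM in vehicle and 100.4 TPM with LLY-283, and since the inhibitor acts on the enzyme its transcript does not check the labels.

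Library LLY-283 replicate 4 stood apart from the others. Mitochondrially encoded transcripts made up 7.19% of it, against 10.6 to 11.0% of the other LLY-283 libraries and 10.2 to 10.7% of the vehicle libraries. It held the highest value of many abundant actin genes. Without it, limma called 17 of the 32 genes higher and 1, TMSB10, lower, where 10.4% and 18.4% of all genes were. Each vehicle library had 24386 to 24757 genes above 0 and each LLY-283 library 24042 to 24315, and TPM keeps no record of read depth.

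SRF and MRTFA both rose, whereas MRTFB did not pass the test. SRF, the MADS-box factor that binds the CArG box, was at 19.2, 19.9, 20.2 and 20.1 TPM in the vehicle libraries and at 21.2, 22.55, 21.8 and 23.1 TPM in the LLY-283 libraries. Every LLY-283 library lay above every vehicle library, and the difference was 0.16 on the log2 scale (SE 0.041, limma adjusted p = 0.0212). That call was lost when vehicle replicate 1 or LLY-283 replicate 2 was left out, at 0.14 and 0.15.

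MRTFA, the more abundant coactivator, was at 43.7, 46.2, 49.2 and 44.55 TPM in vehicle and at 53.5, 54.1, 49.55 and 57.3 TPM with LLY-283. The groups did not overlap, but LLY-283 replicate 3 lay just above vehicle replicate 3. The log2 fold change was 0.22 (SE 0.052, limma adjusted p = 0.0129). On chromosome 22, MRTFA spans positions 40410281 to 40636719 (GRCh38, minus strand) and overlaps SGSM3 on the opposite strand. Whether the counting used strand is not stated, so reads from SGSM3 could enter the value of MRTFA where exons overlap. The overlap given is of whole gene spans, and exons were not compared. The same limit holds for VCL (AP3M1), ZYX (EPHA1), CFL1 (MUS81 and SNX32) and CAPZA1 (ST7L) among the genes that rose, and for ACTA2, ACTN4, TAGLN, MYH10, MYL6, PFN1 and TMSB10, which also overlap a protein-coding gene on the opposite strand.

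MRTFB, which shares the actin-binding RPEL motifs of MRTFA, was at 11.4, 12.4, 14.2 and 11.9 TPM in vehicle and at 13.0, 11.4, 13.9 and 11.2 TPM with LLY-283. The groups overlapped throughout. The log2 fold change of -0.01 had a 95% confidence interval of -0.21 to 0.19, and its sign depended on the scaling of the libraries. The ratio of MRTFA to MRTFB differed by 0.23 on the log2 scale, which an exact permutation test (two-sided) did not separate from 0 (p = 0.114, adjusted over 8 gene pairs 0.229).

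The CArG box was searched for as a pair of C, a run of 6 A or T and a pair of G, on both strands, in the windows from 250 bases before to 50 bases after each start site in RefSeq (GRCh38.p14). A box was present in 454 of 35116 windows (1.29%) and at 438 of 27305 genes (1.6%). Promoter windows were given for 32 of the 35 genes, not for ACTB, TAGLN and MYL9, and 6 of the 32 had a box. These 32 genes had 58 windows, and the list was drawn up to hold SRF-regulated genes. The count is therefore not a test against the share of all genes. The boxes are printed because SRF binds this element, with 10 flanking bases on each side (in SRF only before each box, since the stretch ends at the start site), 5′ to 3′ on the strand of the gene and with the box in capitals. The letters are a description and not a measured binding site.
SRF, chr6:43171229-43171268, plus strand, a pair of boxes: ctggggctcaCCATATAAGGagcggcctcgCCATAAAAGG
ACTG1, chr17:81512874-81512903, minus strand: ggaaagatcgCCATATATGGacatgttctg
ACTN1, chr14:68977718-68977747, minus strand: acgctcatgtCCAAAAATGGtaacattcat
CNN2, chr19:1026509-1026538, plus strand: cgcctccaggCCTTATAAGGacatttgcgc
TPM4, chr19:16067355-16067384, plus strand: aatcctaggtCCAAATAAGGcgagggctgc
FLNA, chrX:154374709-154374738, minus strand: ggcaattttaCCAATTAAGGctttctcgcc

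In SRF the boxes began 30 and 10 bases before the start site, next to each other at the promoter of the factor that binds them. In ACTG1 and FLNA the box began 94 bases before the start, in CNN2 89, in ACTN1 171 and in TPM4 173 bases before it. The printed stretches of SRF, CNN2 and FLNA lie outside the gene in GENCODE release 44, and those of ACTG1, ACTN1 and TPM4 lie in an intron of longer transcripts. Of the 6 genes with a box, SRF, ACTG1, ACTN1 and CNN2 rose, and TPM4 (0.05) and FLNA (-0.02) did not pass. Their median log2 fold change was 0.15. Of the 24 tested genes with a promoter window and no box, 11 rose and the median was 0.09.

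The cytoplasmic actins carried the largest absolute change. ACTB encodes beta-actin, lies on chromosome 7 at 5526409 to 5563902 (minus strand), and ranked between 2 and 6 among all genes by TPM in each library. It was at 8901, 9313, 8979.7 and 9091 TPM in vehicle and at 10287, 10530.5, 10539 and 11727 TPM with LLY-283. Every LLY-283 library was higher than every vehicle library, and replicate 4 was the highest. The mean went from 9071 ± 179 to 10771 ± 648 TPM (SD, n = 4), 18.7% more, with a log2 fold change of 0.25 (SE 0.043, limma adjusted p = 0.00313). Without replicate 4 of LLY-283 the log2 fold change was 0.20. Under quantile normalization it was 0.12 and did not pass (limma adjusted p = 0.357).

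ACTG1, gamma-actin, differs from beta-actin in a few amino acids at its amino terminus. Its level was 2811, 2856, 2816 and 2838 TPM in vehicle, a narrow range, and 3289.97, 3326, 3332 and 3825 TPM with LLY-283. The groups were far apart, with replicate 4 again on top. The mean increase was 21.7%, with a log2 fold change of 0.28 (SE 0.047, limma adjusted p = 0.00246). The ratio of ACTB to ACTG1 was lower by 0.03 on the log2 scale with LLY-283. The ratios did not overlap between groups, yet the exact permutation p of 0.0286 is the smallest that 4 against 4 libraries can give, and it was 0.0762 after adjustment over 8 pairs.

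Both actins have processed copies in the genome that could take up or lend reads. The 11 rows named as ACTB pseudogenes summed to 6.55 TPM in vehicle and 4.95 TPM with LLY-283, 0.058% of the parent gene. The 21 rows of ACTG1 amounted to 0.116% of theirs, and adding the copies left each log2 fold change at 0.25 and 0.28. ACTA2, the actin of smooth muscle, was near the filter with 1.28 to 1.87 TPM in vehicle and 0.85 to 1.48 TPM with LLY-283. The groups overlapped and its log2 fold change was -0.36 (limma adjusted p = 0.247). That value was -0.45 to -0.21 with a library left out and -0.14 under quantile normalization.

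**Figure D2:**
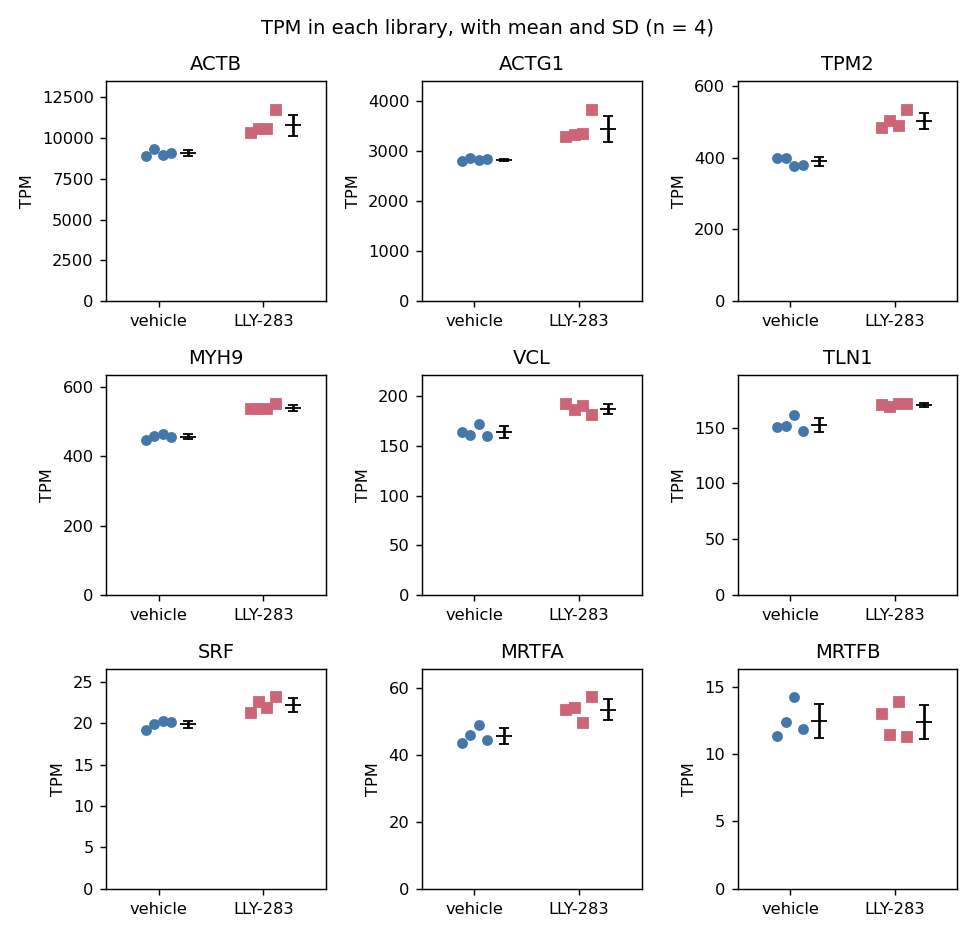
TPM of 9 genes in each library (vehicle in blue, LLY-283 in red, vertical axes from 0), with the mean and SD of 4 libraries beside the points. The groups do not overlap for ACTB, ACTG1, TPM2, MYH9, VCL, TLN1, SRF and MRTFA, and overlap for MRTFB.

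The cytoplasmic actins held most of the increase in the summed level. The 35 genes together made up 2.95% ± 0.039 of the transcripts in vehicle and 3.25% ± 0.158 with LLY-283 (SD, n = 4). Their sum was 29139, 30042.6, 29327 and 29478 TPM in vehicle and 31448, 31879, 31833 and 34863 TPM with LLY-283, 10.2% more on average. ACTB and ACTG1 alone increased by 19.4%, from 11902 to 14214 TPM, and the other 33 genes by 3.96%, from 17595 to 18292 TPM. When mitochondrial transcripts were left out and the rest rescaled, the increase was 9.46% for the sum, 18.6% for the pair of actins and 3.27% for the other genes. Without LLY-283 replicate 4, a setting chosen after the data were seen, these increases in TPM were 7.54%, 15.7% and 2.03%. For the other 33 genes the sum in vehicle replicate 2 exceeded that in LLY-283 replicate 1, so the groups overlapped. With mitochondrial transcripts left out they did not, at 19504 to 19919 TPM in vehicle and 20079 to 20808 TPM with LLY-283.

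Among the crosslinkers of actin filaments, ACTN1 rose and 2 others tested did not pass. ACTN1, an alpha-actinin that bundles filaments at stress fibers and adhesions, was at 195, 195, 207 and 199.6 TPM in vehicle and at 218, 223, 226 and 234 TPM with LLY-283. All LLY-283 libraries were above the vehicle range, with a log2 fold change of 0.18 (SE 0.032, limma adjusted p = 0.00351). Its paralog ACTN4, more abundant at 565 to 628 TPM in vehicle and 610.3 to 652 TPM with LLY-283, overlapped between groups, and its log2 fold change was 0.09 (95% confidence interval 0.01 to 0.17, limma adjusted p = 0.109). It passed at 0.15 with median-of-ratios scaling and at 0.14 with the trend on GC content and length removed. The ratio of ACTN1 to ACTN4 was higher by 0.09, without overlap between groups (exact permutation p = 0.0286, adjusted 0.0762).

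FLNA, filamin A, which joins filaments into networks, was at 1190.3 to 1228 TPM in vehicle and 1160.3 to 1202 TPM with LLY-283. Its log2 fold change was -0.02 with a 95% confidence interval of -0.08 to 0.03. FLNC, the muscle filamin, was under the filter at 0.24 to 0.35 TPM over all libraries.

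Of the calponin family, CNN2 and CNN3 rose. CNN3, acidic calponin, was at 787, 769, 787 and 758 TPM in vehicle and at 846, 846, 845 and 862 TPM with LLY-283, groups that were far apart relative to their spread. The log2 fold change was 0.13 (SE 0.023, limma adjusted p = 0.00347). With quantile normalization it was 0.09 and the call was lost (limma adjusted p = 0.085). CNN2, with 128 to 136 TPM in vehicle and 142 to 151 TPM with LLY-283, had a log2 fold change of 0.14 (limma adjusted p = 0.00886), and the ratio of CNN2 to CNN3 differed by 0.01.

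TAGLN2, the abundant transgelin of these cells, overlapped between groups at 1062 to 1113 TPM and 1104 to 1249 TPM, with a log2 fold change of 0.08 (limma adjusted p = 0.153), or 0.04 without LLY-283 replicate 4. The smooth muscle forms were nearly absent. TAGLN, a classical SRF target, was at 1.23 to 2.28 TPM in vehicle and 1.04 to 1.39 TPM with LLY-283, with a log2 fold change of -0.53 (limma adjusted p = 0.0965). Its value passed at -0.68 when vehicle replicate 1, its lowest vehicle library, was left out. CNN1 stayed under the filter at 0.27 to 0.39 TPM and 0.35 to 0.78 TPM.

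Tropomyosins lie along the groove of the filament and set which proteins can bind it. TPM2, on chromosome 9 at 35681992 to 35690056 (minus strand), had the largest increase of the 32 genes on the log2 scale. It was at 400.1, 400.05, 377 and 381 TPM in vehicle and at 483, 503, 489.5 and 533 TPM with LLY-283. The lowest LLY-283 library lay well above the highest vehicle library. The mean went from 389 ± 12.5 to 502 ± 22.4 TPM (SD, n = 4), 29.0% more, with a log2 fold change of 0.37 (SE 0.037, 95% confidence interval 0.28 to 0.45, limma adjusted p = 0.000234). It passed the test in each of the 17 alternatives.

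The 3 other tropomyosins did not pass. TPM1 had a log2 fold change of 0.05 (limma adjusted p = 0.157), TPM3 of 0.03 (0.499) and TPM4 of 0.05 (0.237). With a library left out, TPM3 was at 0.006 to 0.0419 and TPM4 at 0.0259 to 0.0592. TPM1 passed at 0.11 with median-of-ratios scaling and at 0.18 with the trend on GC content and length removed, and TPM4 passed at 0.13 with that trend removed. TPM2 therefore made up 22.2 to 23.6% of the summed tropomyosin transcripts in vehicle and 26.7 to 27.6% with LLY-283. TPM3 was the most abundant tropomyosin in both groups, with a mean of 36.6% of the sum in vehicle and 34.3% with LLY-283. Rows named as TPM3 pseudogenes held 2.49% of the level of TPM3, the highest share among the genes listed, and with them added its log2 fold change was still 0.03. CALD1, caldesmon, which binds tropomyosin and restrains myosin, was at 158 to 178 TPM in vehicle and 167 to 187 TPM with LLY-283, with a log2 fold change of 0.12 (limma adjusted p = 0.0949). It passed, at 0.16, without vehicle replicate 3 or LLY-283 replicate 4, at 0.18 with median-of-ratios scaling and at 0.17 with the trend removed.

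Nonmuscle myosin II consists of heavy chains with essential and regulatory light chains. The heavy chain MYH9, on chromosome 22 at 36281280 to 36388010 (minus strand), was at 447, 460.3, 464 and 456 TPM in vehicle and at 536, 538, 536 and 553 TPM with LLY-283. The spread within each group was small beside the gap between them. The mean went from 457 ± 7.19 to 541 ± 8.09 TPM (SD, n = 4), 18.3% more, with a log2 fold change of 0.24 (SE 0.024, limma adjusted p = 0.000187), the smallest adjusted p of the 32 genes.

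The other heavy chain, MYH10, went the other way without passing the test. It was at 6.14, 5.86, 6.56 and 6.59 TPM in vehicle and at 5.24, 5.79, 5.64 and 4.97 TPM with LLY-283. All LLY-283 libraries were below all vehicle libraries in TPM. The log2 fold change was -0.21 (SE 0.076, limma adjusted p = 0.0636), or -0.07 under quantile normalization (limma adjusted p = 0.453). MYH9 was thus 69.2 to 78.5 times as abundant as MYH10 in the vehicle libraries and 92.8 to 111 times in the LLY-283 libraries. This ratio was higher by 0.46 on the log2 scale, without overlap (exact permutation p = 0.0286, adjusted 0.0762). Of the 8 pairs of related genes compared, 0 passed after adjustment. At an unadjusted p under 0.05, 3 passed, each at the smallest p the design allows, namely ACTB with ACTG1, ACTN1 with ACTN4 and MYH9 with MYH10.

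The regulatory light chains MYL12A and MYL12B, neighbors on chromosome 18 and nearly alike in protein sequence, rose together. MYL12A was at 474 to 496 TPM in vehicle and 513 to 531 TPM with LLY-283, with a log2 fold change of 0.10 (limma adjusted p = 0.0164). MYL12B was at 496 to 507 TPM and 519.9 to 543 TPM, with a log2 fold change of 0.09 (limma adjusted p = 0.0215). Leaving out vehicle replicate 4 ended both calls, at 0.09 and 0.08, and leaving out vehicle replicate 2 or LLY-283 replicate 2 ended that of MYL12B, at 0.09 and 0.08. Quantile normalization also ended both, at 0.05 and 0.06 (limma adjusted p = 0.0934 and 0.0892). The ratio between them differed by 0.01 (exact permutation p = 0.429). Reads that match both can be divided between them by RSEM, so their separate values are uncertain.

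MYL6, the essential light chain and the most abundant of these myosin transcripts, was at 2016 to 2084 TPM in vehicle. With LLY-283 it was at 1951 to 1977 TPM in 3 libraries and at 2184 TPM in replicate 4, so that the groups overlapped through that library alone. The log2 fold change was -0.01 (limma adjusted p = 0.833), and MYL6 also overlaps MYL6B on the same strand. MYL9, the regulatory light chain of smooth muscle, was listed at 0 in 7 libraries and at 0.12 TPM in vehicle replicate 4.

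**Figure D3:**
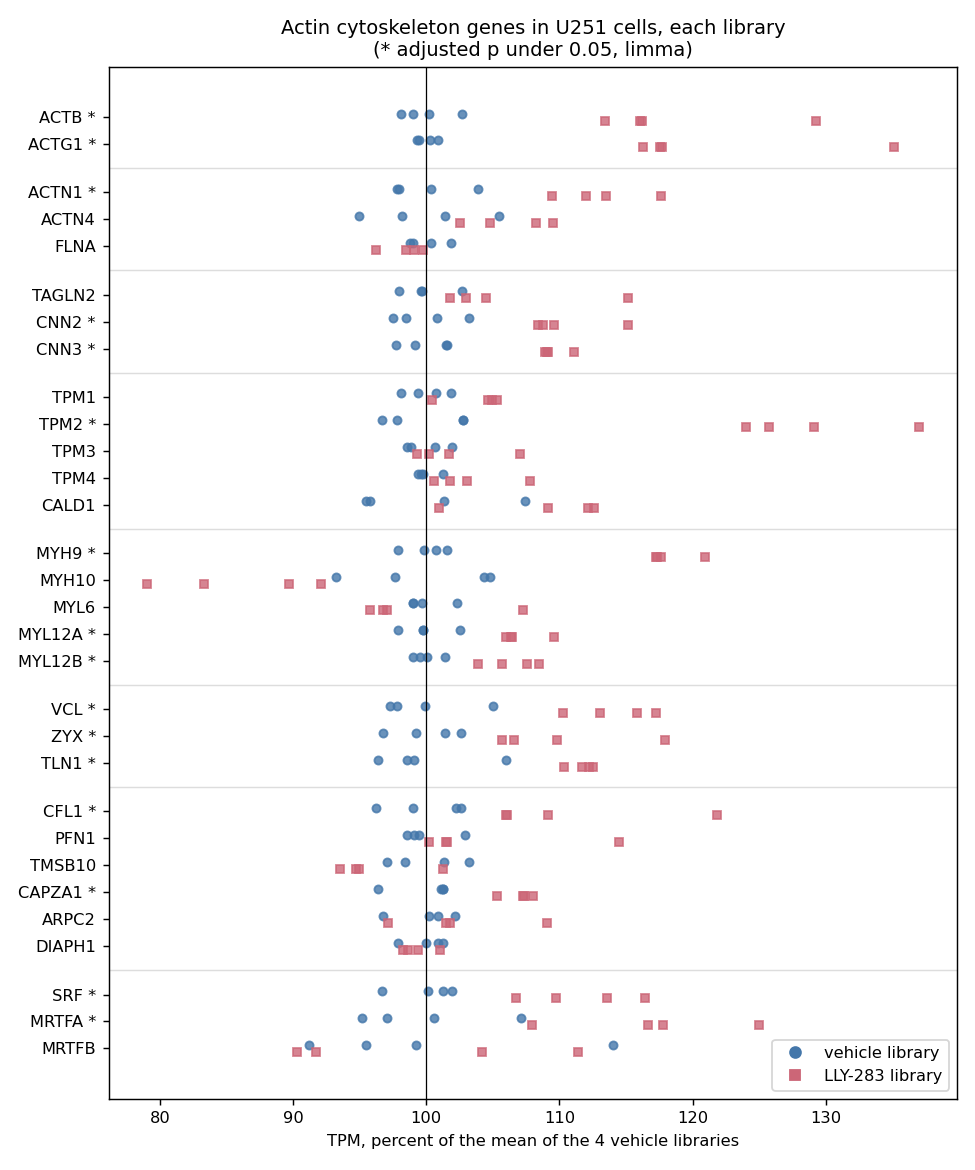
TPM in each library as a percent of the mean of the 4 vehicle libraries, for the 30 tested genes that averaged 5 TPM or more (ACTA2 and TAGLN are left out), grouped by role, with vehicle in blue circles and LLY-283 in red squares. An asterisk marks an adjusted p under 0.05 in limma, and the 16 genes marked have no overlap between groups.

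All 3 focal adhesion genes rose. VCL encodes vinculin, which links talin to actin under tension, and was at 164, 161, 173 and 160.0 TPM in vehicle and at 193, 186, 190.4 and 181 TPM with LLY-283. The groups did not overlap, here with replicate 4 as the lowest LLY-283 library, and the log2 fold change was 0.19 (SE 0.033, limma adjusted p = 0.00313). TLN1, talin, which connects integrins to the filaments, was at 147 to 162 TPM in vehicle and at 170.3, 168, 172 and 171 TPM with LLY-283. Its LLY-283 libraries lay close together above the vehicle range, with a log2 fold change of 0.16 (SE 0.032, limma adjusted p = 0.00644). ZYX, zyxin, a LIM protein of stress fibers, was at 124 to 132 TPM and 136 to 152 TPM, with a log2 fold change of 0.14 (limma adjusted p = 0.0294). The call of ZYX was lost, at 0.12 to 0.14, without vehicle replicate 1, 3 or 4 or LLY-283 replicate 2, and without a filter on low values (limma adjusted p = 0.0623).

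Of the 6 genes for assembly and turnover, CFL1 and CAPZA1 rose. CFL1, cofilin, which severs old filaments, was at 1299 to 1385 TPM in vehicle and 1431 to 1645 TPM with LLY-283, with a log2 fold change of 0.15. Its limma adjusted p of 0.0453 was close to the threshold, and the call was lost, at 0.13 to 0.17, on leaving out any library other than LLY-283 replicate 4. It was also lost without a filter on low values (limma adjusted p = 0.114), and with quantile normalization it was 0.08 and passed. CAPZA1, a subunit of the protein that caps the barbed end, was at 208 to 219 TPM and 227 to 233 TPM, with a log2 fold change of 0.10 (limma adjusted p = 0.0223), a call that was lost at 0.08 to 0.10 without vehicle replicate 4 or LLY-283 replicate 1 or 3, and at 0.08 with quantile normalization.

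The other 4 genes overlapped between groups. PFN1, profilin, which delivers monomers to growing ends, had a log2 fold change of 0.06 (limma adjusted p = 0.331), or 0.02 without LLY-283 replicate 4, where it was highest at 2627 TPM. ARPC2, a core subunit of the branching Arp2/3 complex, had 0.03 (adjusted p = 0.547), or 0.0019 without that library, and the formin DIAPH1 had -0.01 with a 95% confidence interval of -0.07 to 0.05. TMSB10, thymosin beta 10, which binds free monomers, was at 3327 to 3539 TPM in vehicle. With LLY-283 it was at 3206 to 3256 TPM in 3 libraries and at 3471 TPM in replicate 4, with a log2 fold change of -0.06 (limma adjusted p = 0.241). Without replicate 4 it was called lower at -0.08 (limma adjusted p = 0.0304). The signs of FLNA, MYL6, TMSB10, DIAPH1 and MRTFB turned positive under median-of-ratios scaling of the TPM values.

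A further 111 genes of the same pathway, drawn up as 9 lists by function of which 8 are described, were examined beside them. Of the 106 tested, 15 rose and 3 fell, where 8.61% and 17.6% of all genes did, with a median of 0.03 on the log2 scale. At an unadjusted p under 0.05 limma had 24 higher and 9 lower. After quantile normalization 26 were called higher and 5 lower, where 12.9% and 12.6% of all genes were. Median-of-ratios scaling gave 36 and 1 (15.0% and 11.8% of all genes), and removing the trend on GC content and length 43 and 1 (19.4% and 11.4%). In the remaining Arp2/3 subunits, 2 of 8 rose, including ACTR3 from 279.9 to 315 TPM (0.17, limma adjusted p = 0.00313). None of 10 WASP and WAVE nucleation promoters passed in limma, with 2 higher and 2 lower at an unadjusted p under 0.05. Of 10 other formins, INF2 fell from 136 to 126 TPM (-0.11, limma adjusted p = 0.0212) and 0 rose. The call of INF2 was lost at -0.05 with median-of-ratios scaling, at -0.06 with the trend removed and at -0.10 without vehicle replicate 2 or LLY-283 replicate 3.

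Among 13 assembly and turnover factors, 3 rose and 1 fell. WDR1, the cofactor of cofilin in disassembly, rose from 224 to 268 TPM (0.26, limma adjusted p = 0.00104). CTTN, cortactin, which stabilizes branches, was lower, 157 against 147 TPM (-0.10, limma adjusted p = 0.0411), a call lost in 13 of the 17 alternatives, at -0.04 with median-of-ratios scaling, -0.02 with the trend removed and -0.09 to -0.11 on leaving out any vehicle library or LLY-283 replicate 2 or 3. Of 17 tested filament-binding proteins 3 rose, led by SYNPO, synaptopodin, from 31.1 to 37.1 TPM (0.25, limma adjusted p = 0.000858). Of 15 tested focal adhesion genes 2 rose, led by BCAR1, an adhesion scaffold, from 83.4 to 100.7 TPM (0.27, limma adjusted p = 0.000504).

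Of 12 tested SRF target genes outside the 35, FILIP1L rose from 27.1 to 31.7 TPM (0.23, limma adjusted p = 0.00612), CSRP1 rose as well (0.12, limma adjusted p = 0.038), and IER2, an immediate-early gene, fell from 40.1 to 34.4 TPM (-0.22, limma adjusted p = 0.00705). The call of CSRP1 was lost, at 0.11 to 0.14, without vehicle replicate 1, 2 or 4 or LLY-283 replicate 1 or 2. It was also lost, at 0.12, with a replicate block (limma adjusted p = 0.0504) and without a filter on low values (0.0793). With the trend removed CSRP1 was at 0.22 and IER2 at -0.14. The call of IER2 was lost with both the trend removed and a replicate block (limma adjusted p = 0.0823). The immediate-early genes EGR1 and FOS respond to SRF through the ternary complex factors rather than the MRTFs. EGR1 was at 6.33 TPM in vehicle and 6.70 TPM with LLY-283 (0.08, limma adjusted p = 0.489), and FOS was low at 1.19 and 1.00 TPM (-0.26, limma adjusted p = 0.427). The ternary complex factors ELK1, ELK3 and ELK4 did not pass, with log2 fold changes of 0.00, 0.04 and -0.06. In the smooth muscle marker list, 1 of 2 tested genes passed, SMTN, which rose from 34.2 to 39.7 TPM (0.21, limma adjusted p = 0.0207), a call lost at 0.19 to 0.21 without vehicle replicate 1 or 4 or LLY-283 replicate 3.

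**Figure D4:**
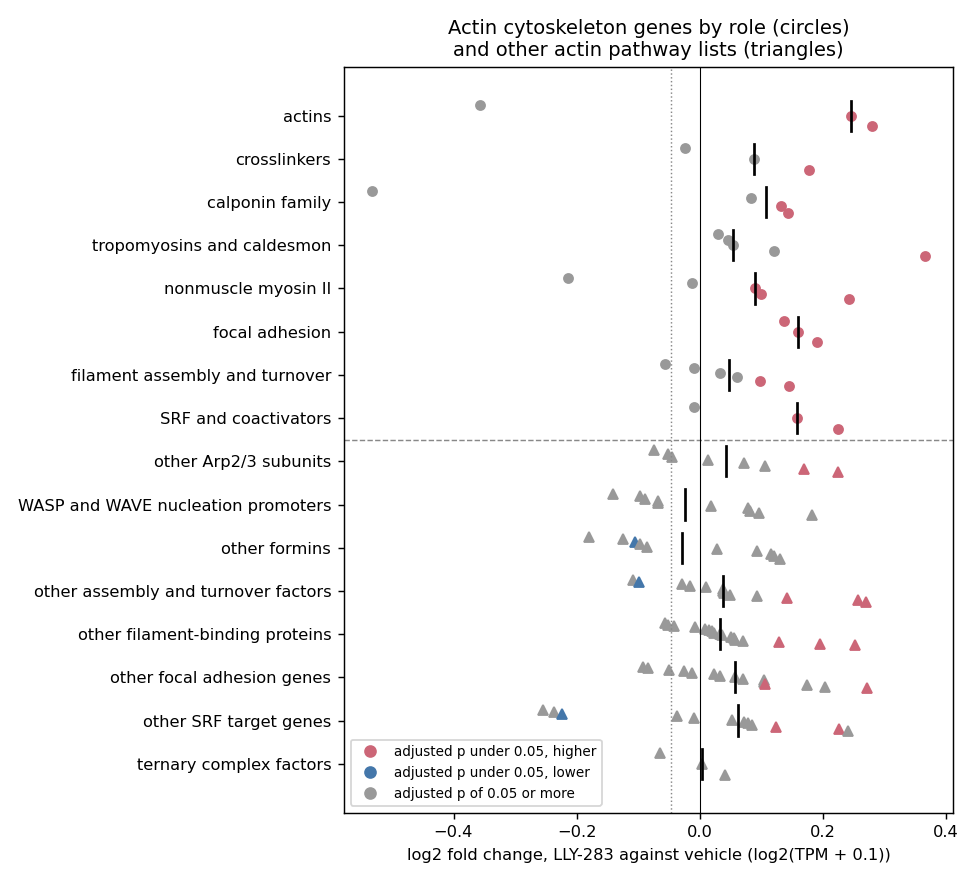
Log2 fold change, LLY-283 against vehicle, of each tested gene by role, with the actin cytoskeleton genes as circles and 8 other pathway lists as triangles, red or blue where the adjusted p was under 0.05 in limma. Black bars mark the median of each list and the dotted line the median of all genes tested (-0.05). The actins, the focal adhesion genes and SRF with its coactivators have the highest medians (0.25, 0.16 and 0.16). Each of these lists holds only 3 tested genes, so the medians are the values of ACTB, TLN1 and SRF. The actins also hold ACTA2 at -0.36, and the SRF list holds MRTFB at -0.01.

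Scaling of the libraries changed the balance of calls over all genes. The calls numbered 1247 higher and 2541 lower as reported, 1871 higher and 1820 lower after quantile normalization, and 2165 higher and 1714 lower after median-of-ratios scaling. Against these backgrounds, 11 of the 32 actin cytoskeleton genes were higher and 2 lower (FLNA and TMSB10) with quantile normalization, and 19 were higher and 0 lower with median-of-ratios scaling. The 16 genes that rose kept a positive log2 fold change in each of the 17 alternatives. In most of these the sign could not turn. The groups of these genes did not overlap, so a library left out or another pseudocount cannot reverse it. The filters and the replicate block leave the fold change as it was. Only scaling, mitochondrial genes left out and the trend removed could have turned the sign. ACTG1, ACTN1, CNN2, TPM2, MYH9, VCL, TLN1 and MRTFA passed in each of the 17 alternatives. Removing the GC and length trend also rescaled the libraries to the same mean log2 level, and the part of that rescaling in the values below was not tested. With the GC and length trend removed, the log2 fold changes of CNN2 (0.23), CNN3 (0.22), MYL12A (0.22), MYL12B (0.20), ZYX (0.22), CFL1 (0.26) and CAPZA1 (0.17) were more than 1.5 times those given above. In that setting ACTN4 (0.14), TAGLN2 (0.20), TPM1 (0.18), TPM4 (0.13), CALD1 (0.17), PFN1 (0.19), ARPC2 (0.15) and MYL6 (0.13) were called higher as well.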

How the data were processed

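Gene-level TPM, 4 vehicle and 4 LLY-283 libraries of U251 cells labelled as biological replicates, were used as the authors deposited them. The authors trimmed reads with cutadapt 1.18, mapped them to GRCh38 with STAR and estimated expression with RSEM on GENCODE 41. For STAR and RSEM the submitters' processing notes name versions 2.7.0f and 1.3.1, and the methods name 2.7.6a and 1.3.3. TPM removes depth and transcript length but not library composition, and depth is unknown.

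Genes that averaged 1 TPM or more (14478) were compared as log2(TPM + 0.1) with limma 3.58.1 (lmFit, eBayes with trend) in R 4.3.3, without covariates, with two-sided p-values adjusted by the Benjamini-Hochberg method over all genes. Ratios of 8 gene pairs were compared by exact permutation. The added 0.1 makes fold changes of low genes too small. Positions came from GENCODE 44 (14457 of 14478 genes matched by identifier) and promoters from RefSeq.

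The 35 genes, the lists and the marker genes were chosen with earlier results of these data known. Named genes are the 35, the gene with the smallest p in each direction of each pathway list (1 of the 9 lists is not reported here), ELK1, ELK3, ELK4, EGR1, FOS, PRMT5 and the markers. CSRP1 was named after its values were seen, and genes that overlap a member after their positions were. The alternatives were pseudocount, filter, scaling, mitochondrial genes, GC content and length trend (splines with 4 degrees of freedom), replicate block and libraries left out. Removing the trend also gave every library the same mean log2 level.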

Additional observations from a re-analysis of the deposited data

Results flagged for a closer look

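In 9 of 70 sets of 4 values (35 genes in each of 2 groups), the highest or the lowest library stood apart from the other 3 by Dixon's test at the 95% level, which chance alone gives in about 1 in 20 sets. In 6 of the 9 the value was the highest of LLY-283 replicate 4, the library with the low mitochondrial share, namely ACTG1 at 3825 TPM, CNN3 at 862 TPM, MYH9 at 553 TPM, MYL6 at 2184 TPM, MYL12A at 531 TPM and PFN1 at 2627 TPM. The part of the mitochondrial share in these values was not tested. The other 3 were TPM1 at 251.13 TPM, the lowest value of the LLY-283 group (replicate 1), CAPZA1 at 208 TPM, the lowest of the vehicle group (replicate 4), and MYL9 at 0.12 TPM in vehicle replicate 4, where the other vehicle libraries were listed at 0. Without LLY-283 replicate 4, the log2 fold change of ACTG1 was 0.23 in place of 0.28.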

How the results depend on the processing

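Among the 35 genes, the count of higher calls (16) was 11 to 17 when a library was left out. That of lower calls (0) was 0 to 1, with TAGLN called lower without vehicle replicate 1 and TMSB10 without LLY-283 replicate 4. Of all genes tested, 6.13 to 10.4% were then higher and 13.0 to 18.4% lower. Lower calls were 2 with quantile normalization and 1 (TMSB10) with mitochondrial genes left out, where 12.6% and 18.1% of all genes were lower. Removing the GC and length trend gave 24 higher and 0 lower calls, where 19.4% and 11.4% of all genes were called. Without a filter 14 were higher, with ZYX and CFL1 lost, where 2.96% of all genes were higher. The median log2 fold change, 0.09, was 0.15 after scaling by median-of-ratios, 0.19 with the trend removed, and 0.08 to 0.10 with a library left out.

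The 15 higher and 3 lower pathway genes became 26 and 5 with quantile normalization, 36 and 1 after scaling by median-of-ratios, 43 and 1 with the trend removed, and 9 to 17 and 1 to 8 with a library left out (9 higher without vehicle replicate 4, 1 lower without LLY-283 replicate 3, 8 lower without LLY-283 replicate 4). Over all genes, higher calls were 2801 and lower calls 1644 with the trend removed. The causes were not tested.

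No pairing by replicate number was visible in the values. Correlations of same-numbered libraries were -0.041, 0.032, -0.002 and -0.085, and those of different-numbered libraries lay between -0.213 and 0.201. Whether the cultures were grown in pairs cannot be told from these values. With a replicate block 16 of the 32 tested genes were higher and 0 lower, where 7.56% and 15.2% of all genes were. MYL12B was lost (limma adjusted p = 0.0578) and CALD1 gained (0.0391). With the replicate block and the trend removed, 20 were higher, pathway calls were 29 and 0, the median was 0.19, and all genes gave 2289 higher and 1371 lower calls.

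Signs turned for 5 genes that had not passed. With the TPM values scaled by median-of-ratios and with the trend removed (with or without the replicate block), FLNA was 0.0365 and 0.027, MYL6 0.0471 and 0.129, TMSB10 0.0026 and 0.0935, DIAPH1 0.05 and 0.0541, and MRTFB 0.05 and 0.0421. MRTFB was 0.088 after quantile normalization and -0.0657 to 0.055 with a library left out, and MYL6 was -0.0506 to 0.0037. The FLNA to FLNC ratio was -0.0118 with a pseudocount of 1 and -0.044 to 0.0797 with a library left out, and the CNN2 to CNN3 ratio -0.0075 to 0.0269. Without counts, the counting error of low genes such as ACTA2, TAGLN and MYL9 cannot be estimated.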
